A study of Danio rerio with 6 samples.

Results

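The 100 most abundant transcripts of the adult zebrafish (Danio rerio) ventricle, leaving out mitochondrial and very long records, were followed across 6 RNA sequencing libraries. They were the 100 records with the largest mean TPM (a length-corrected share of a library's transcripts, scaled to the same sum in each library) among 57554 candidates out of 57775 records in all. The candidates were what remained after 208 records longer than 12000 bases and a run of 13 records with the lengths of the mitochondrial protein genes had been set aside. The members were chosen by TPM averaged over both genotypes, so their levels and order are given as a description.

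Of the 6 libraries, 3 came from ttna+/- fish, heterozygous for an allele truncated in exon 201 of ttna, and 3 from wild-type (WT) siblings. The fish were 6 months old. Each library was made from polyadenylated RNA of 6 pooled ventricles, and the labels call the 3 pools of a genotype biological replicates. The ttna gene encodes titin, the giant elastic protein of the sarcomere. No sex or strain is used here, and all cell types of the ventricle entered a pool.

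Transcript abundance in heart muscle is strongly uneven. Contractile proteins of the sarcomere, enzymes of energy supply, ribosomal proteins and, through blood left in the chamber, globins are commonly among the most abundant messages of a vertebrate ventricle. In a tissue pool, a lower level can come from fewer cells of a type or from less RNA per cell, and these cannot be told apart.

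A record carries only its Ensembl transcript ID in the tables, and 0 of the 57775 matched a gene table at hand. The members are therefore called by ID and annotated length, no gene or function is assigned to any of them, and the ventricle label was not checked against marker genes. No member had the length of either mitochondrial ribosomal RNA in the RefSeq table (952 and 1683 bases). The word nuclear rests only on that and on the 13 records set aside.

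Library totals were 40808904 to 44412410 estimated counts in ttna+/- and 28688112 to 34140752 in WT. The median gap between annotated and effective length of records over 2000 bases, which follows fragment size, was 167 to 170 bases in ttna+/- and 153 to 161 in WT. Neither range overlapped between the genotypes, and the part of either in the differences below was not tested. The members were chosen for abundance, and the lowest estimated count of any member in any library was 2685.

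The 100 members took 40.1%, 40.4% and 39.7% of all TPM in libraries 1 to 3 of ttna+/-, against 41.0%, 43.1% and 41.5% in those of WT. The WT libraries were all above the ttna+/- libraries, at 41.9% ± 1.1 against 40.1% ± 0.34 (SD, n = 3 per group). Taken as a share of estimated counts the groups overlapped, at 28.8%, 30.6% and 29.0% in ttna+/- and 28.6%, 32.2% and 31.9% in WT. They also overlapped as a share of the TPM of the candidates alone. That share was 49.8%, 52.9% and 50.9% in ttna+/- and 50.4%, 56.3% and 53.4% in WT. No test was run on any of these shares. The 13 mitochondrial records took a further 18.4% to 23.6% of TPM in a library.

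Levels fell steeply over the first ranks and slowly after them. Mean TPM ran from 44999 for the first member to 1431 for the last, a ratio of 31.4, with a median of 2248. It exceeded 10000 in 6 members and 5000 in 15, and was under 2000 in 35. The first 10 members took between 42.4% and 50.0% of the members' TPM in a library.

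**Figure D1:**
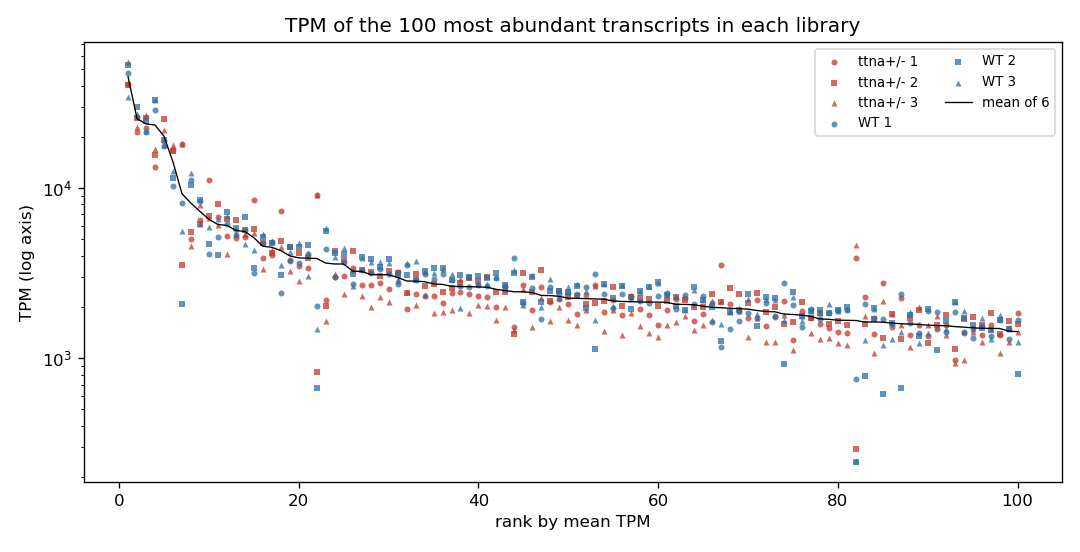
TPM (log axis) of each of the 100 members in each library against rank by mean TPM; red is ttna+/-, blue is WT, marker shape gives the replicate number, and the line is the mean of 6 libraries. The line drops from 44999 to under 10000 within 7 ranks, and the points farthest from it belong to ranks 7, 22 and 82.

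The first member, ENSDART00000182970.1, was also the shortest, with 168 bases. It stood at 40849, 40561 and 54718 TPM in ttna+/- and at 47148, 52613 and 34107 TPM in WT, each in the order of replicates 1 to 3 that is kept below. It ranked first in all 6 libraries, and the genotypes overlapped. Its effective length, the part of a transcript in which a fragment can start, was only 41.8 to 43.5 bases. Its TPM was therefore high for its number of reads. By mean CPM (counts scaled to a common library total, with no length correction) it was at rank 42.

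The next 5 members had 916 to 1335 bases and ranked between 2 and 7 in every library. ENSDART00000105726.4 (1335 bases) stood at 21463, 25639 and 22975 TPM in ttna+/- and at 26174, 29921 and 27157 TPM in WT. ENSDART00000040013.3 (1026 bases) stood at 22488, 25610 and 26852 TPM in ttna+/- and at 21466, 24748 and 21634 TPM in WT. The WT libraries of the first lay just above its ttna+/- libraries in TPM and overlapped them in TMM-scaled CPM, with a log2 fold change of -0.23 ± 0.20 (SE) and an edgeR adjusted p of 0.680. The groups of the second overlapped. ENSDART00000062370.4 (1308 bases) stood at 18967, 25345 and 21956 TPM in ttna+/- and at 17666, 19114 and 17854 TPM in WT. It spread more widely among the ttna+/- libraries, with an SD of 3191 TPM against 788 in WT. ENSDART00000186761.1 (618 bases), at rank 9, stood at 6500, 6176 and 7944 TPM in ttna+/- and at 8410, 8527 and 6143 TPM in WT, with overlap. The remaining members of the first 10 are described with the genotype comparison or with the most variable members.

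The members were short. Their median annotated length was 685.5 bases, against 1966 for the 29950 transcripts tested for genotype. Of the 100, 64 had at most 800 bases, and 11 had more than 1500. Among all tested transcripts 13.6% had at most 800 bases. TPM divides by length, so short records need fewer reads to reach a given rank, and this difference is partly made by the ranking itself. By mean CPM only 63 of the 100 were among the first 100, and ENSDART00000123634.3 (177 bases), at TPM rank 55, was at CPM rank 962. At the other end, ENSDART00000128784.4 (6016 bases) was at TPM rank 82 and CPM rank 6. ENSDART00000042040.8 (3724 bases) was at ranks 86 and 10, and ENSDART00000138911.3 (2986 bases) at ranks 91 and 17.

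Many members had estimated counts that were not whole. Such a fraction can be left when a program divides reads among transcripts with common sequence, and 59 members had one in at least 1 library. Whether reads were divided was not tested, since the tables hold no read assignments. A further 22 had whole counts wherever a decimal would show. The other 19 were at 100000 counts or more in every library, where the 6 significant digits of the tables show no decimal. Any error of dividing reads is not part of the SE or p-values below.

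Most members were steady across the 6 libraries. The ratio of the highest to the lowest TPM had a median of 1.65, and was under 1.5 in 32 members, from 1.5 to 2 in 47 and at least 2 in 21. Over the 399 tested records of the next TPM ranks, up to 500, the median ratio was 1.67, and 32.6% had a ratio of at least 2. The steadiest was ENSDART00000147706.2 (523 bases), at 3189, 3155 and 2833 TPM in ttna+/- and 2724, 3090 and 2906 TPM in WT, a ratio of 1.17. ENSDART00000004692.9 (975 bases) had a ratio of 1.20, ENSDART00000005879.8 (829 bases) one of 1.24, ENSDART00000040013.3 one of 1.25 and ENSDART00000023156.7 (1745 bases) one of 1.27. In each library between 86 and 93 of the members were among that library's own first 100, and 69 were in the first 100 of all 6.

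Where members moved, many moved in the same library. The lowest TPM of a member was in ttna+/- 3 for 55 of the 100, and the highest was in WT 2 for 30 and in WT 3 for 23. The pattern followed length. Of the 64 members of at most 800 bases, 44 were lowest in ttna+/- 3, and their median TPM there was 0.75 of each member's own mean over the libraries. The same median was 0.91 in ttna+/- 1, 1.04 in ttna+/- 2, 1.03 in WT 1, 1.14 in WT 2 and 1.12 in WT 3. Of the 19 members longer than 1200 bases, 4 were lowest in ttna+/- 3, with a median of 0.99 there and of 0.92 to 1.08 in the other libraries. How far the values of ttna+/- 3, or of any other library, shape the genotype difference of the short members was not tested.

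**Figure D2:**
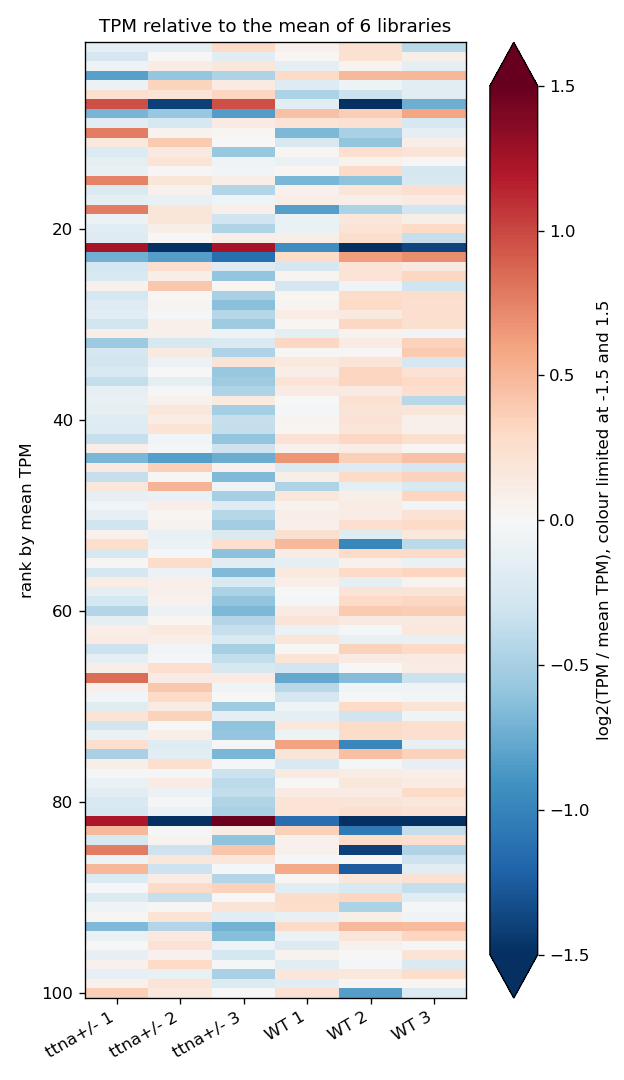
TPM of each member relative to its mean over the 6 libraries, on a log2 scale with the colour limited at -1.5 and 1.5; each line is a member in order of rank and each column a library. Most lines are pale, with a pale blue column for ttna+/- 3, where 55 members are lowest, and a few dark lines such as ranks 7, 22 and 82.

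The comparison of ttna+/- with WT asks which transcripts differ in the ventricle when 1 copy of ttna is truncated. All 100 members passed the filter on low counts. Their log2 fold changes ran from -1.44 to 2.87 with a median of -0.17, against a median of 0.01 over all 29950 transcripts tested. They lay within 0.5 of 0 in 77 members and beyond 1 in 8, of which 3 were higher and 5 lower. Beyond 1 lay 13.7% of all transcripts tested. Without ttna+/- 3 the members' median was -0.08, without ttna+/- 1 it was -0.09, and without ttna+/- 2 it was -0.32. The median also followed length among all transcripts tested. It was -0.13 up to 500 bases, -0.09 at 501 to 800, -0.04 at 801 to 1200 and 0.03 above 1200. Among the members it was -0.33, -0.25, -0.07 and 0.04 in the same order.

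None of the 100 members passed the test. At an adjusted p under 0.05, edgeR's quasi-likelihood test called 0 members, whether or not a 2-fold limit was added, as it called 0% of all transcripts tested. Among the members the lowest adjusted p was 0.163. An unadjusted p under 0.05 was reached by 20 members, 8 higher and 12 lower in ttna+/-, against 10.6% of all transcripts tested and 20.1% of those at the next ranks, up to 500. The share of members was thus near that of the next ranks. Leaving out 1 library moved both the members' count and the share over all transcripts. Without ttna+/- 2 there were 46 members against 16.5% of all transcripts, and without WT 1 there were 19 against 12.2%. Without ttna+/- 1 or WT 3 there were 11, against 6.72% and 7.11%. Without ttna+/- 3 or WT 2 there were 9, against 6.24% and 6.59%.

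The 3 libraries of one genotype lay wholly above those of the other in 18 members. On CPM scaled with TMM factors, which correct for a few abundant transcripts taking reads from the rest, 6 members were higher in every ttna+/- library and 12 were lower. Over all transcripts tested these shares were 6.68% and 11.2%, so both counts were near that background. Over the 399 tested records of the next TPM ranks, up to 500, the shares were 12.8% higher and 11% lower. The counts depended on the scaling. With RLE factors 6 members were higher and 6 lower, against 7.36% and 9.68% of all transcripts. With CPM without factors 7 were higher and 28 lower, against 4.84% and 15.4%. On the deposited TPM 11 were higher and 31 lower, against 5.87% and 13.4%.

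**Figure D3:**
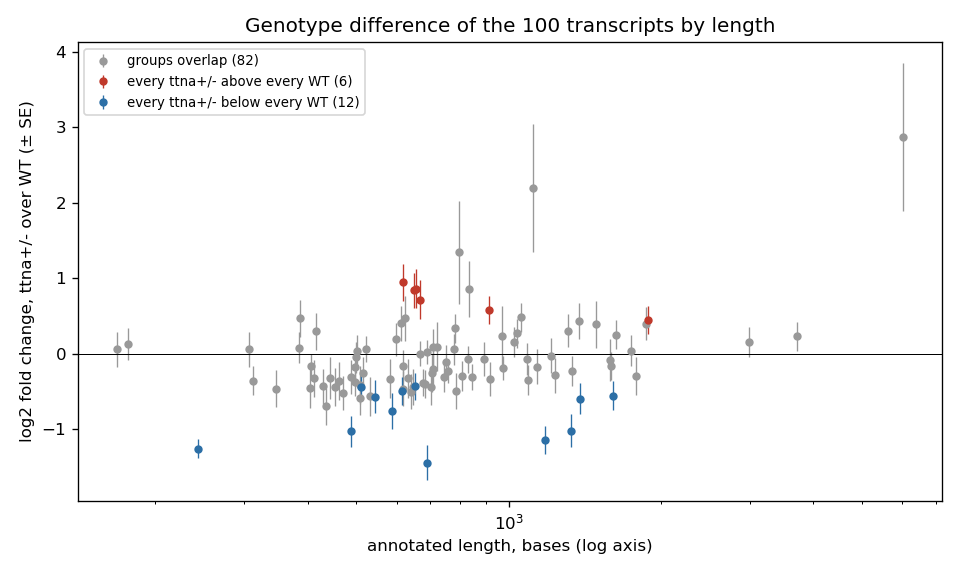
Log2 fold change (ttna+/- over WT, bars are SE) of the 100 members against annotated length in bases (log axis), coloured by whether the genotypes overlap in TMM-scaled CPM. The 12 members lower in every ttna+/- library span 243 to 1609 bases, and 4 of the 6 higher ones sit together between 617 and 667 bases.

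DESeq2, used because the design text names a DESeq approach, called some members on the same counts. It called 5 past the 2-fold limit, against 1.35% of the 32834 transcripts it tested. Of the 5, 1 was higher and 4 were lower, against 0.868% and 0.481%. At an adjusted p under 0.05 alone it called 7, 2 higher and 5 lower, against 1.82% in both directions. Leaving out 1 library moved the 5 to between 3 and 9, and the 7 to between 3 (without WT 2) and 30 (without ttna+/- 2). Over all transcripts the same fits moved its calls from 443 to between 338 and 1728, and from 598 to between 411 and 2337. Without ttna+/- 1 the numbers were 3 and 4. DESeq2 and edgeR read the same libraries, so the calls of one are no second measurement for the other.

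The member with the smallest p was ENSDART00000187836.1, with 243 bases and at rank 44. It stood at 1522, 1383 and 1467 TPM in ttna+/- and at 3891, 3146 and 3317 TPM in WT. The lowest WT library was more than 2 times the highest ttna+/- library. The log2 fold change was -1.26 ± 0.13 (SE), the edgeR adjusted p 0.163 and the DESeq2 adjusted p 7.9e-18. Its effective length was 94.3 to 96.3 bases in ttna+/- and 97.6 to 100.9 bases in WT. At CPM rank 447 it is one of the members that owe their rank to shortness. Estimated counts of this member were fractional in 5 of the 6 libraries.

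Among the most abundant members, a pair stood lower in ttna+/- by about the same factor. ENSDART00000063800.7 (1331 bases, rank 4) stood at 13289, 15713 and 16996 TPM in ttna+/- and at 28669, 32852 and 33105 TPM in WT. Its place in a library changed from 6 or 7 in ttna+/- to 2 in WT. The log2 fold change was -1.02 ± 0.22 (SE), the edgeR adjusted p 0.292 and the DESeq2 adjusted p 0.0086. ENSDART00000146867.3 (1180 bases, rank 8) stood at 5025, 5505 and 4551 TPM in ttna+/- and at 11071, 10482 and 12249 TPM in WT. It was at places 14 to 17 in ttna+/- and at 6 or 7 in WT. The log2 fold change was -1.15 ± 0.18 (SE), the edgeR adjusted p 0.235 and the DESeq2 adjusted p 1.0e-04. In both members the lowest WT library was well above the highest ttna+/- library. The counts of both were too large in every library for their printed digits to show a fraction, so whether reads were divided with other records cannot be told.

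ENSDART00000130798.3 (688 bases, rank 23) had the lowest log2 fold change of the members, -1.44 ± 0.23 (SE). It stood at 2197, 2035 and 1648 TPM in ttna+/- and at 4393, 5587 and 5857 TPM in WT. The groups were far apart, the edgeR adjusted p was 0.227 and the DESeq2 adjusted p 3.9e-05. ENSDART00000144203.3 (487 bases, rank 93) stood at 969, 1133 and 937 TPM in ttna+/- and at 1872, 2149 and 2135 TPM in WT. Its log2 fold change was -1.03 ± 0.20 (SE), with an edgeR adjusted p of 0.264 and a DESeq2 adjusted p of 0.0054. Both had fractional counts in every library where a decimal could show, which for the second was all 6 libraries. The other 7 members lower in every ttna+/- library had log2 fold changes from -0.76 to -0.43, and none had an edgeR adjusted p under 0.409.

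Of the 6 members higher in every ttna+/- library, 4 lay close together in the tables, in rows 44284 to 44297. The sources used here do not say what the row order follows. The neighbours were chosen after their values had been seen. The other 10 records of that stretch had a mean TPM of at most 10.5. ENSDART00000101713.5 (667 bases, rank 10) stood at 11117, 6805 and 6662 TPM in ttna+/- and at 4111, 4679 and 5890 TPM in WT, which gave a log2 fold change of 0.72 ± 0.26 (SE). ENSDART00000113098.5 (651 bases, rank 15) stood at 8548, 5768 and 5428 TPM in ttna+/- and at 3181, 3368 and 4329 TPM in WT, which gave a log2 fold change of 0.84 ± 0.23 (SE).

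The other pair of the stretch also had ttna+/- 1 highest and WT 1 lowest. ENSDART00000110848.3 (657 bases, rank 18) stood at 7319, 4878 and 4507 TPM in ttna+/- and at 2408, 3084 and 3523 TPM in WT, which gave a log2 fold change of 0.86 ± 0.26 (SE). ENSDART00000130869.3 (617 bases, rank 67) stood at 3548, 2152 and 2158 TPM in ttna+/- and at 1165, 1263 and 1579 TPM in WT, which gave a log2 fold change of 0.94 ± 0.24 (SE). The edgeR adjusted p of the 4 lay between 0.345 and 0.443, and DESeq2 gave an adjusted p under 0.05 only for ENSDART00000130869.3, at 0.030. Their summed TPM was 30532, 19603 and 18756 in ttna+/- and 10865, 12395 and 15320 in WT. ttna+/- 1 stood above the other ttna+/- libraries by more than these differed from the highest WT library. All 4 had fractional counts in 2 to 4 libraries. Except in ENSDART00000130869.3, these were all the libraries whose counts were small enough to show a decimal. Whether the 4 are separate measurements was not tested.

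The 2 further members higher in every ttna+/- library were abundant ones whose counts were likewise too large to show a fraction. ENSDART00000138070.3 (916 bases, rank 6) stood at 16787, 16450 and 17823 TPM in ttna+/- and at 10251, 11417 and 12661 TPM in WT. It was even within each genotype, at 17020 ± 715 TPM against 11443 ± 1205 TPM (SD, n = 3 per group). The log2 fold change was 0.58 ± 0.19 (SE), with an edgeR adjusted p of 0.427 and a DESeq2 adjusted p of 0.166. ENSDART00000024199.8 (1883 bases, rank 45) stood at 2701, 3148 and 2558 TPM in ttna+/- and at 2107, 2141 and 2063 TPM in WT, with a log2 fold change of 0.44 ± 0.18 (SE) and an edgeR adjusted p of 0.470. It was picked out here after its values had been seen, to complete the 6.

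The highest log2 fold changes belonged to members whose groups overlapped. ENSDART00000128784.4, the longest member with 6016 bases, stood at 3851, 291 and 4597 TPM in ttna+/- and at 753, 245 and 247 TPM in WT. ttna+/- 1 and 3 were high, ttna+/- 2 lay below WT 1, and the highest value was 18.8 times the lowest. The log2 fold change was 2.87 ± 0.98 (SE), with an edgeR adjusted p of 0.435 and a DESeq2 adjusted p of 0.018. Its place among the candidates ranged from 15 in ttna+/- 3 to 363 in WT 3.

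The 2 other members with a ratio of highest to lowest TPM over 5 also had ttna+/- 2 far below ttna+/- 1 and 3. ENSDART00000009054.8 (1119 bases, rank 22) stood at 9040, 832 and 9069 TPM in ttna+/- and at 2023, 664 and 1487 TPM in WT, which gave a log2 fold change of 2.19 ± 0.85 (SE). ENSDART00000048395.3 (796 bases, rank 7) stood at 18069, 3517 and 18077 TPM in ttna+/- and at 8212, 2087 and 5567 TPM in WT, which gave a log2 fold change of 1.34 ± 0.68 (SE). In all 3 members ttna+/- 1 and 3 were above every other library, WT 1 was the highest WT library, and WT 2 was the lowest of the 6. The edgeR adjusted p was 0.458 and 0.527 for these 2, and DESeq2 gave 0.079 and 0.316. Their ratios of highest to lowest TPM were 13.7 and 8.66, and the 3 were the only members with a ratio over 5.

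**Figure D4:**
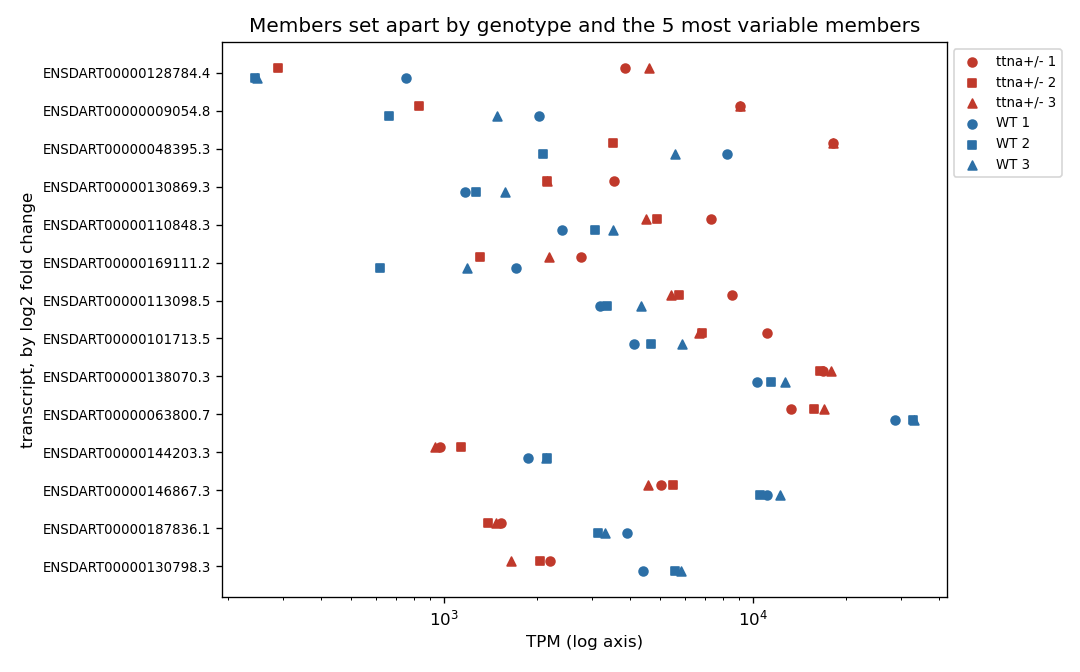
TPM (log axis) in each library of the 10 members with the smallest p among those without overlap between genotypes, 5 in each direction, and of the 5 most variable members, ordered by log2 fold change; ENSDART00000130798.3 is in both sets. In the 3 uppermost members ttna+/- 2 (red square) lies among the WT libraries, and in the 5 lowest all ttna+/- points lie left of all WT points.

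WT 2 was low in a further set. Of the 21 members with a ratio of at least 2, 9 were lowest in WT 2. Besides the 3 above they included ENSDART00000169111.2 (835 bases, rank 85), at 2766, 1307 and 2178 TPM in ttna+/- and at 1708, 618 and 1188 TPM in WT. Its log2 fold change was 0.86 ± 0.37 (SE), with an edgeR adjusted p of 0.481, and the groups overlapped. There too ttna+/- 1 and 3 were above every other library, and WT 1 was the highest WT library. In ENSDART00000063870.7 (611 bases), the last member, WT 2 stood at 806 TPM and the other libraries at 1244 to 1831. In none of the 9 were the genotypes apart. Of the 21, 12 had no overlap between the genotypes in TPM, a measure on which 5.87% of all transcripts tested were higher and 13.4% lower. The 21 were picked by their spread, so this count is a description.

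Adjacent records did not always move together. ENSDART00000130798.3 lies in the row after ENSDART00000040013.3, the member at rank 3, whose groups overlapped. Of the summed TPM of the 2 records, the first took 8.90%, 7.36% and 5.78% in ttna+/- and 17.0%, 18.4% and 21.3% in WT. That share averaged 7.35% ± 1.56 over the ttna+/- libraries and 18.9% ± 2.2 over the WT libraries (SD, n = 3 each), with no overlap. ENSDART00000146867.3 lies 2 rows from ENSDART00000020741.8 (1609 bases, rank 32), which stood at 1951, 2412 and 2439 TPM in ttna+/- and at 3540, 3098 and 3617 TPM in WT. Both were lower in every ttna+/- library, the second with a log2 fold change of -0.56 ± 0.19 (SE) and an edgeR adjusted p of 0.433. The more abundant of the 2 took 72.0%, 69.5% and 65.1% of their summed TPM in ttna+/- and 75.8%, 77.2% and 77.2% in WT. Whether neighbours are transcripts of 1 gene is not given in the tables, and these pairs were chosen after their values had been seen.

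The limit of 100 falls in a flat stretch of levels. The last 3 members, ENSDART00000052082.6, ENSDART00000005191.8 and ENSDART00000063870.7, had mean TPM of 1494, 1442 and 1431. The next 3 records, ENSDART00000128917.3, ENSDART00000012055.7 and ENSDART00000027329.8, had mean TPM of 1418, 1386 and 1353. Ranking on the ttna+/- libraries alone kept 93 of the 100, and ranking on the WT libraries alone kept 92.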

How the data were processed

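Per the labels, polyadenylated RNA was sequenced on a HiSeq 2000 with paired reads of 50 bases. The submitters' processing notes name Cuffdiff, Cufflinks 2.2.1, TopHat2 2.1.1 and the genome builds GRCz11 and Zv9, with no role stated. Which program wrote the tables is not stated. The authors deposited, per the file headers, an estimated count, a TPM value, an annotated length and an effective length for each transcript.

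Members and lists were chosen with earlier results of these data known. Estimated counts were rounded and tested over the whole table with edgeR 4.0.16 in R 4.3.3 (TMM, filterByExpr with a minimum count of 10, robust quasi-likelihood fit, genotype as the only term), with Benjamini-Hochberg adjustment over 29950 transcripts. SE is the log2 fold change over the square root of F. DESeq2 1.42.0 on all records with a count, and limma 3.58.1 on log2(TPM + 1) and log2(TPM + 0.1), were alternatives. Named members were the first 10, the 5 of smallest p in each direction without overlap, the 5 steadiest, the 5 most variable, the 3 longest, the 3 shortest and the 3 last; others are said to be chosen after their values were seen or are given in counts.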

Additional observations from a re-analysis of the deposited data

How the results depend on the processing

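The 0 calls by edgeR, over all transcripts and among the members, held under other scalings, no filter, the replicate block and each library left out (0 to 0). DESeq2 called 443 transcripts past 2-fold and 598 at an adjusted p alone. Without ttna+/- 1, 2 and 3 and WT 1, 2 and 3 in turn it called 363, 1728, 338, 1036, 355 and 414 past 2-fold, and 459, 2337, 411, 1330, 416 and 488 at an adjusted p alone. Among the members it called 5 (3, 9, 5, 6, 3 and 5) and 7 (4, 30, 5, 7, 3 and 5). Limma called 1 transcript on log2(TPM + 1) and 8 on log2(TPM + 0.1), with and without the fold limit, none of them members, and 0 on log2(TPM + 1) with no filter. The cause of these differences was not tested. The members' median log2 fold change stayed below 0 in every alternative, from -0.32 to -0.08 with 1 library left out of edgeR. With no scaling factor, the median of all transcripts shifted from 0.01 to -0.07 and that of the members from -0.17 to -0.25. With totals that also leave out the members and the records set aside, again without TMM factors, the 2 medians were -0.10 and -0.28. The difference in the members' share of TPM, -1.78 percentage points, ranged from -2.21 to -1.16 with 1 library left out. As a share of the candidates' TPM it was -2.16, and as a share of estimated counts -1.45, with the groups overlapping on both. Ranking on mean CPM kept 63 members, and leaving out 1 library 97 to 99. Members without overlap between genotypes numbered 42 on TPM, 35 on CPM with no factor and 12 with RLE factors, against 18 with TMM factors. Over all transcripts the shares were 5.87% higher and 13.4% lower on TPM, and 4.84% and 15.4% with no factor. They were 7.36% and 9.68% with RLE factors, and 6.68% and 11.2% with TMM factors. The counts on scales other than TMM, and DESeq2 with 1 library left out, were added after seeing the data.

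With the replicate block edgeR called 0 transcripts and gave 31 members an unadjusted p under 0.05, against 20, and 11.2% of all transcripts, against 10.6%. Deviations of same-numbered libraries from their genotype means had correlations of 0.24, 0.20 and -0.20 across transcripts. Those of differently numbered libraries ran from -0.38 (ttna+/- 2 with WT 1) to 0.25 (ttna+/- 3 with WT 1). The numbers were therefore not taken as pairs.

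Of 29 named members 6 changed sign somewhere, all with log2 fold changes near 0. With no scaling factor the log2 fold change was -0.028 for ENSDART00000182970.1, -0.013 for ENSDART00000147706.2, -0.037 for ENSDART00000023156.7 and -0.034 for ENSDART00000005191.8. With totals without the members, also with no scaling factor, it was -0.065, -0.052, -0.071 and -0.071 in the same order. With 1 library left out it ranged from -0.088 to 0.246, from -0.037 to 0.159, from -0.125 to 0.190 and from -0.117 to 0.165. It also ranged from -0.207 to 0.022 for ENSDART00000005879.8 and from -0.074 to 0.259 for ENSDART00000123634.3.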
